A study of Mus musculus with 3 samples.

Results

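The genes described here are 38 genes of fatty acid and sterol metabolism, out of 27998 genes counted in single cells of the mouse subventricular zone (SVZ), the neurogenic layer along the lateral wall of the lateral ventricle. They were chosen by name and grouped into 5 arms. Fatty acid synthesis had 8 genes and sterol synthesis 7, and 3 genes activate fatty acids by joining them to coenzyme A. Another 15 were grouped under beta-oxidation, and 5 under lipid binding and transport. All 38 symbols matched 1 gene each. Cells came from adult mice (5 mice, per the labels) that carried the Cre line and reporter aSMACreERt2::Rosa26-tdTomato together with the Sox2 reporter allele of B6;129S-Sox2tm2Hoch/J, on a background labelled C57/Bl6(3/4) with 129S1SvlmJ(1/4). The tdTomato-positive library held cells positive for both tdTomato and GFP (1200 sorted). Libraries 1 and 2 of the tdTomato-negative gate held cells with GFP alone (1200 and 6000 sorted). In such mice tdTomato marks cells in which a tamoxifen-dependent Cre was active under the promoter of smooth muscle actin, and GFP reports Sox2, so cells without Sox2 reporter signal were outside both gates. Neither a tamoxifen schedule nor an exact age is given in the labels. They also leave unsaid how the 5 mice were divided over the libraries. In comparisons of cell classes, each p-value reflects the spread that is left once differences between libraries are taken out. In comparisons of the gates it reflects the spread between the 2 tdTomato-negative libraries. Either spread may be technical.

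Fatty acids are built in the cytosol from acetyl-CoA by acetyl-CoA carboxylase and fatty acid synthase, then elongated by ELOVL enzymes and desaturated by stearoyl-CoA desaturases. Cholesterol arises from the same acetyl-CoA through HMG-CoA and the mevalonate pathway, and both routes are under the SREBP transcription factors, which INSIG proteins hold back when sterols are plentiful. Beta-oxidation runs the other way: acyl-CoA enters mitochondria through the carnitine palmitoyltransferases and is shortened by acyl-CoA dehydrogenases, the trifunctional protein and thiolase, while electron transfer flavoprotein carries the electrons away. In the brain, astrocytes and oligodendrocytes are known as the main makers of lipid, myelin is rich in cholesterol, and neural stem and progenitor cells are known to use both fatty acid synthesis and oxidation.

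The libraries held 314, 259 and 1127 barcodes with 788344, 929997 and 3593633 UMIs (unique molecular identifiers, each standing for 1 captured transcript), in the order tdTomato-positive, tdTomato-negative 1 and tdTomato-negative 2, an order kept for all values below. After filtering, 252, 256 and 1121 cells were left, and 3 barcodes occurred in 2 libraries and were kept. Median mitochondrial shares were 8.27%, 3.22% and 3.38%. Clusters, computed without any of the lipid genes, were named from marker lists: ependymal-like (234 cells), astrocyte-like (281), transit-amplifying-like (143), neuroblast-like (230), neuron-like (484), oligodendrocyte precursor-like (51) and oligodendrocyte-like (38). A cluster of 109 cells led by Ung, Mcm3 and Mcm2 (DNA repair and replication genes), here called cluster 9, stayed unnamed, as did cluster 13 (17 cells, led by Bmp4 and other genes of the oligodendrocyte lineage). The tdTomato-positive library was 70.2% ependymal-like and the tdTomato-negative ones 4.7% and 4.0%. Dividing cells named transit-amplifying-like held a UMI of the proliferation gene Mki67 in 86.0% of cells, of the progenitor gene Egfr in 26.6% and of the neuroblast gene Dcx in 67.8%. The class may thus hold dividing neuroblasts beside dividing progenitors. Levels are UMI counts scaled to a total of 1e+06 (CPM) of a library's summed cells of a class, for sums of at least 10 cells. Where a class has 2 values they are those of tdTomato-negative libraries 1 and 2, except for oligodendrocyte-like cells (tdTomato-positive and tdTomato-negative 2). UMIs are counted at the 3′ end, so levels were not divided by gene length. In such sums fewer expressing cells and less RNA per cell cannot be told apart.

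Most of the 38 genes were highest in astrocyte-like cells, among the classes with at least 2 libraries. Mean CPM over libraries was highest in astrocyte-like cells for 20 of 38 genes, in ependymal-like cells for 7, in oligodendrocyte-like cells for 4, in cluster 9 for 4, and in neuroblast-, neuron- and oligodendrocyte precursor-like cells for 1 each. For 16 of 38 genes every library of the highest class lay above every library of the class next by mean. Neither count was made over all genes, so whether the lipid genes differ from others in this was not tested. Levels spanned a wide range. Dbi, the acyl-CoA binding protein gene, had 19707 UMIs in all, Fabp5, a fatty acid binding protein, 3945, and Scd2, a stearoyl-CoA desaturase, 1774. At the other end Acacb, the acetyl-CoA carboxylase of the mitochondrial surface, had 9 UMIs and Lpl, lipoprotein lipase, 8, so their levels were at the limit of detection in every class. The heat map shows all 38 genes across 9 classes and clusters.

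**Figure D1:**
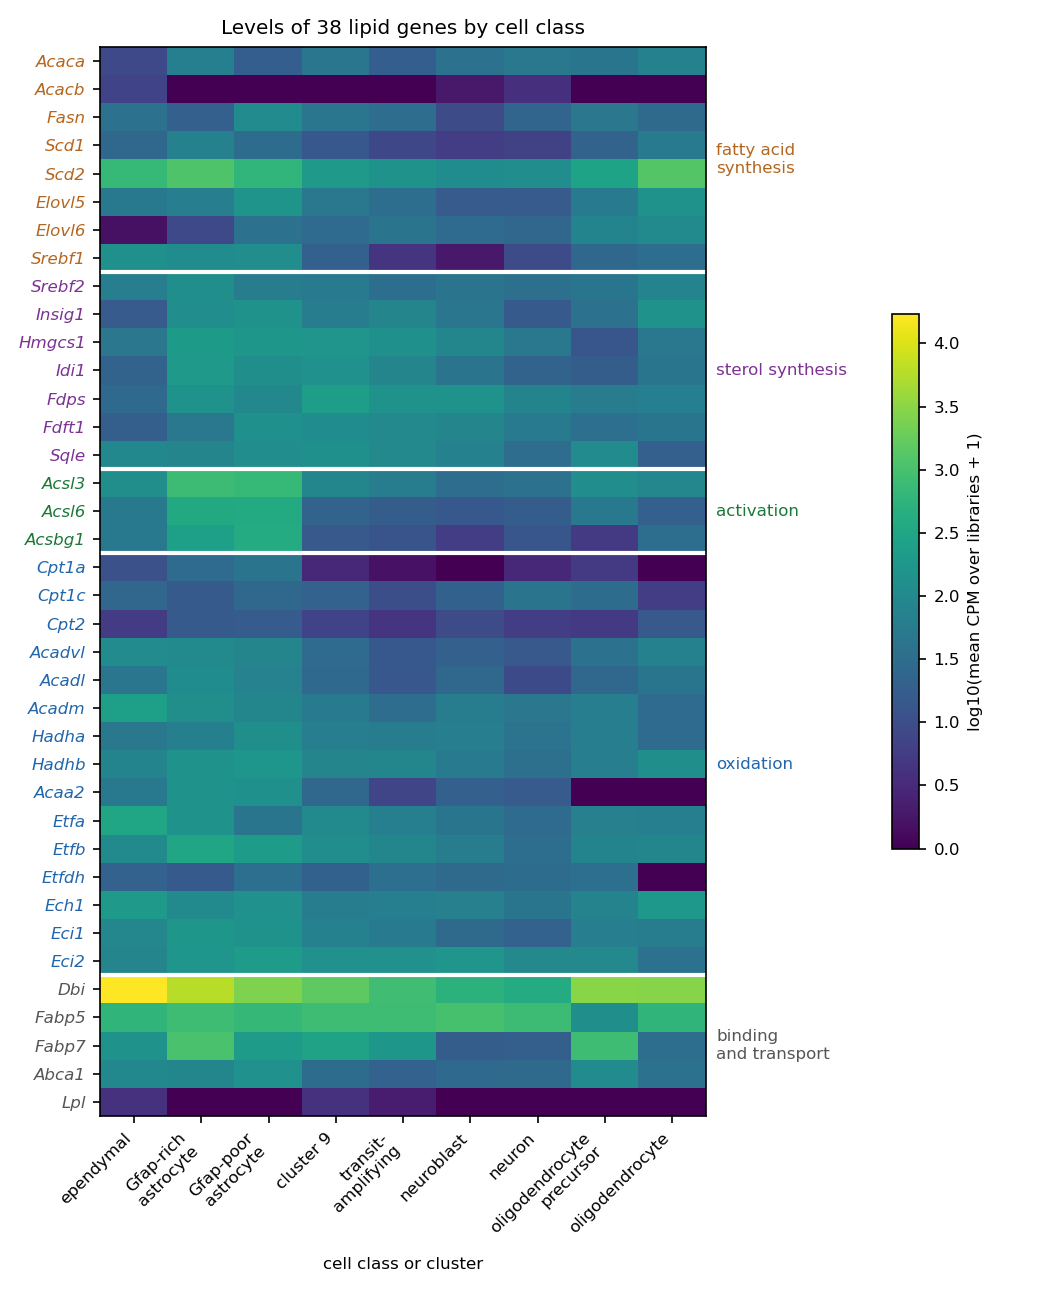
Mean level of each of the 38 genes (rows, grouped and coloured by arm) in 9 cell classes or clusters (columns, each named by resemblance to its markers), as log10 of the mean CPM over libraries plus 1. Dbi is highest in ependymal-like cells at 17019 CPM, the 3 activation genes stand out in both astrocyte-like clusters, and Acacb and Lpl are near 0 throughout.

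Oxidation genes summed higher in ependymal-like and astrocyte-like cells than in the neurogenic and oligodendrocyte lineage classes. Summed CPM of the 15 oxidation genes was 1423, 1312 and 1490.0 in ependymal-like and 1462, 1539 and 1777 in astrocyte-like cells. In transit-amplifying-like cells it was 681 and 655, in neuroblast-like cells 629 and 679 and in neuron-like cells 448 and 474 (tdTomato-negative libraries 1 and 2). The ependymal-like and astrocyte-like classes lay above all 3 neurogenic classes in every library, and above cluster 9 (782 and 861 CPM). Oligodendrocyte precursor-like cells (641 and 781) and oligodendrocyte-like cells (705 and 785) were below them too. Low levels were thus not particular to neurogenic classes. Sterol synthesis followed another order. It summed to 933, 1012 and 694 CPM in astrocyte-like cells, 971 and 799.6 in cluster 9, 851 and 488 in transit-amplifying-like and 579.9 and 454 in neuroblast-like cells, but to 289, 356 and 219 in ependymal-like cells. Every ependymal-like value was below every value of those 4 groups. Neuron-like cells (327 and 238 CPM), oligodendrocyte precursor-like cells (269.7 and 357) and oligodendrocyte-like cells (334 and 546) overlapped the ependymal-like range. Activation genes summed to 1507 ± 143 CPM (SD, n = 3) in astrocyte-like cells and to 223 ± 18 CPM (SD, n = 3) in ependymal-like cells, the next of the classes with at least 2 libraries.

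Synthesis set against oxidation gave a ratio above 1 in every library of 1 class, the oligodendrocyte-like cells. UMIs of the 8 fatty acid synthesis genes divided by those of the 15 oxidation genes came to 2.84 and 1.72 in oligodendrocyte-like cells (tdTomato-positive and tdTomato-negative 2). In astrocyte-like cells the ratio was 0.894, 0.966 and 0.531, and in ependymal-like cells 0.798, 0.814 and 0.417. These 2 classes overlapped, at 0.797 ± 0.233 (SD, n = 3) and 0.676 ± 0.225 (SD, n = 3). Within the astrocyte-like class, the Gfap-rich cluster had 1.31 and 0.576, so 1 of its 2 libraries, with 46 UMIs of synthesis and 35 of oxidation genes, was above 1. In the neurogenic series it was 0.47 ± 0.01 (SD, n = 2) in cluster 9, 0.42 ± 0.016 (SD, n = 2) in transit-amplifying-like, 0.321 ± 0.0789 (SD, n = 2) in neuroblast-like and 0.539 ± 0.0842 (SD, n = 2) in neuron-like cells. A single gene carried much of the numerator. Without the most abundant gene of each arm, which is Scd2 for synthesis in these classes, the mean ratio was 0.620 in oligodendrocyte-like, 0.332 in astrocyte-like, 0.252 in transit-amplifying-like, 0.203 in neuroblast-like and 0.200 in ependymal-like cells, so the value above 1 rests on Scd2. With all genes kept and cells thinned to 1000 UMIs each, the mean ratio was 1.28 in oligodendrocyte-like cells. Thinning also made it higher in neuroblast-like than in transit-amplifying-like cells, the reverse of their order above. Within each of the astrocyte-like and ependymal-like classes the ratio was lowest in tdTomato-negative library 2, and sterol genes of astrocyte-like cells were lowest there too. What differed between those 2 libraries of 1 gate was not tested. No test was made on arms, because their genes were chosen with earlier results known.

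**Figure D2:**
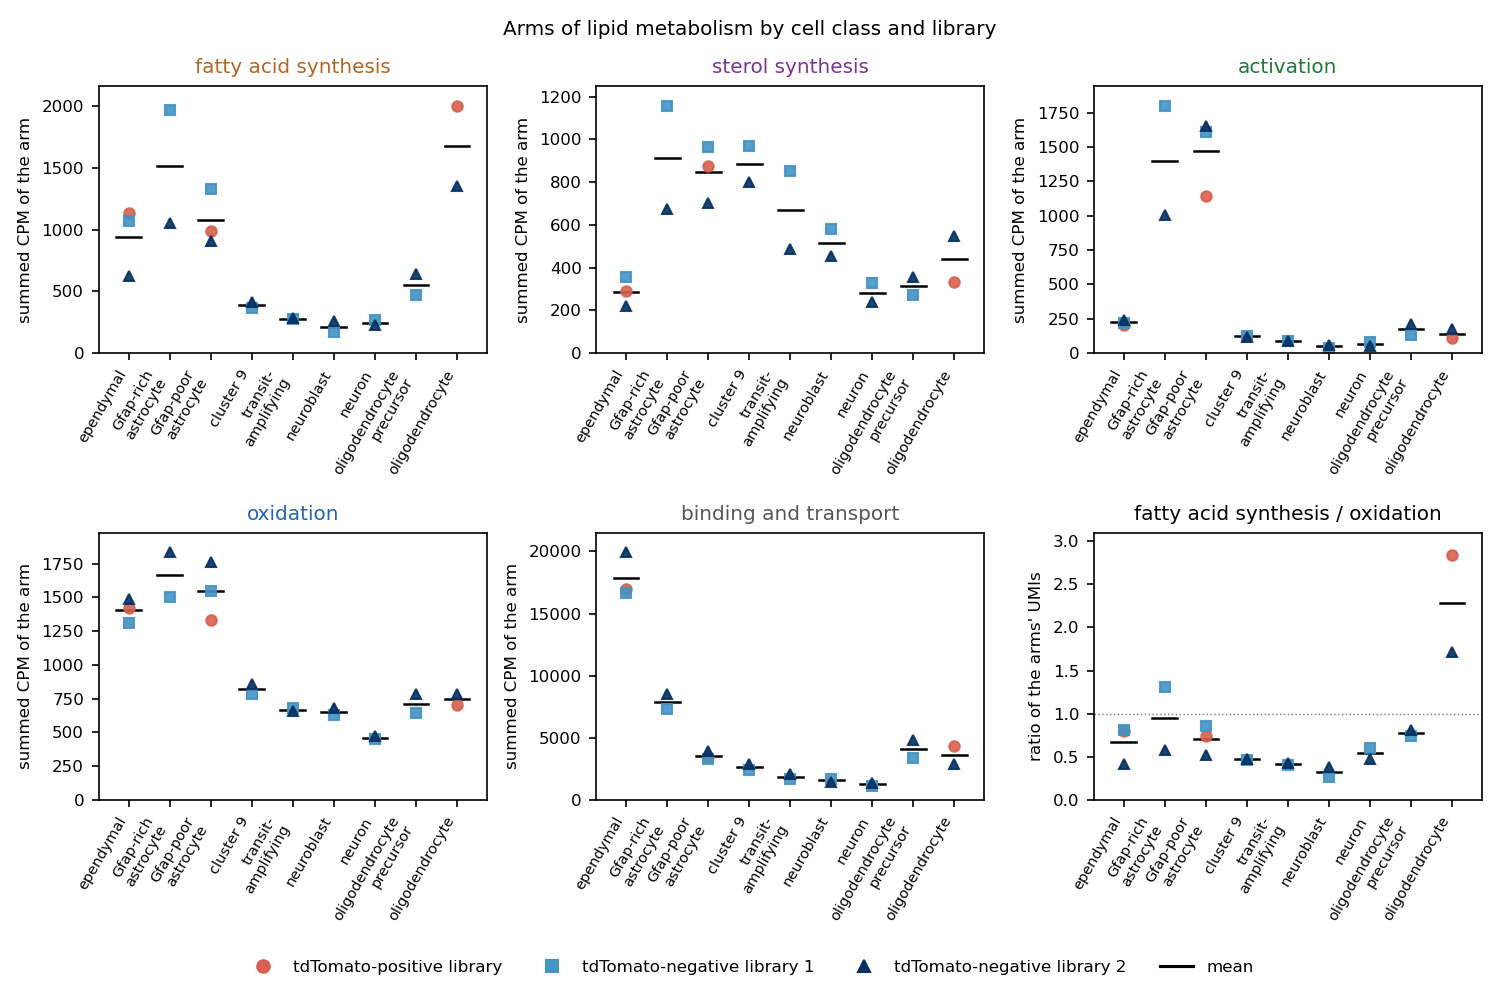
Summed CPM of each arm (5 panels) and the ratio of fatty acid synthesis to oxidation UMIs (last panel) in 9 cell classes or clusters. Each symbol is 1 library and the bar the mean. Oxidation is between 1312 and 1833 CPM in the ependymal-like class and the 2 astrocyte-like clusters. It is between 448 and 681 CPM in transit-amplifying-, neuroblast- and neuron-like cells.

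Ependymal cells, the multiciliated lining of the ventricle, and astrocytes were compared first, as glial classes of this tissue. Of the 38 genes, 32 passed the filter on low counts. It asks for a minimum level in a small number of sums of any class. Some genes, in the list or outside it, may thus have passed through high astrocyte-like sums alone. Of these, 3 were higher and 16 lower in ependymal-like cells (edgeR's quasi-likelihood test with library as a block, adjusted p under 0.05), beside 31.1% of all 3324 genes called (18.5% higher, 12.6% lower). Their median log2 fold change was -1.06, against 0.06 over all genes tested. By arm, 3 of 3 activation genes, 5 of 7 sterol genes, 3 of 6 tested fatty acid synthesis genes, 4 of 12 tested oxidation genes and 1 of 4 tested binding genes were lower. The 3 higher ones were Dbi, Etfa and Acadm. Median mitochondrial shares were 8.6% in ependymal-like and 4.8% in astrocyte-like cells (8.9% in those of the tdTomato-positive library), and their part in these differences was not tested.

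Dbi stood out in ependymal-like cells. Its protein, acyl-CoA binding protein or diazepam binding inhibitor, carries acyl-CoA in the cytosol and is also cut to peptides that act on GABA receptors. The gene lies on the minus strand of GRCm38 chr1:120113280-120121078. It measured 16204, 15794 and 19059.6 CPM in ependymal-like and 3359.8, 3056 and 3685 in astrocyte-like cells. The groups did not overlap, and the difference was 5.16-fold (log2 fold change 2.37, SE 0.19, adjusted p = 5.75e-32). Endothelial-like cells of the tdTomato-positive library, in which most cells were ependymal-like, held 1719 CPM and its microglia-like cells 1683. Neuron-like cells of the tdTomato-negative libraries held 398 and 414, and how much of the low levels is free RNA was not tested. In astrocyte-like cells the 16 ependymal markers summed to 1369, 379 and 308 CPM, against 16942, 16551 and 18490 in ependymal-like cells. Of these markers 11, 11 and 16 were detected in astrocyte-like cells. The Dbi level of astrocyte-like cells in the first library (3359.8 CPM) lay between those of the second (3056) and the third (3685). The part of ependymal RNA in these levels was not tested.

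Among the other binding and transport genes, Fabp7, the brain fatty acid binding protein of radial glia, was lower in ependymal-like cells. It measured 114, 156 and 161 CPM, against 342, 432 and 516 in astrocyte-like cells (log2 fold change -1.59, SE 0.28, adjusted p = 2.14e-07), with no overlap. Fabp5 (-0.21, SE 0.22 on the log2 scale) and Abca1, which exports cholesterol to lipoproteins (-0.17, SE 0.38), did not pass the test. Lpl was too low to be tested.

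All 3 activation genes were lower in ependymal-like cells by large margins. Acsl3, a long-chain acyl-CoA synthetase of the endoplasmic reticulum and lipid droplets, measured 133, 89 and 144 CPM, against 560.0, 875 and 730.1 in astrocyte-like cells (log2 fold change -2.24, SE 0.26, adjusted p = 2.39e-16). Acsl6, the synthetase linked to brain docosahexaenoic acid, was at 56.1, 44.5 and 51.8 against 373, 485 and 341 CPM (log2 fold change -2.69, SE 0.34, adjusted p = 8.87e-14). Acsbg1, the bubblegum acyl-CoA synthetase, was at 17, 89 and 46 against 436, 295 and 426 CPM (log2 fold change -3.39, SE 0.38, adjusted p = 2.57e-17). For each gene the lowest astrocyte-like library was more than 3 times the highest ependymal-like one, and all 3 calls stood under every alternative run. The 19 astrocyte markers summed to 2538, 2358 and 2157 CPM in ependymal-like cells, and how much of the low activation levels came with them was not tested.

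Oxidation genes split in ependymal-like cells. Etfa, the alpha subunit of electron transfer flavoprotein, measured 286, 267 and 362 CPM, against 31.1, 73.8 and 94.2 in astrocyte-like cells (log2 fold change 1.86, SE 0.31, adjusted p = 1.69e-08). Its partner Etfb, the beta subunit, went the other way, at 134, 89 and 92 against 249, 242 and 237 CPM (log2 fold change -1.04, SE 0.31, adjusted p = 0.00411). Neither gene's groups overlapped, so the transcripts of these 2 subunits of 1 protein had opposite orders in the 2 classes. Acadm, the medium-chain acyl-CoA dehydrogenase, was higher at 223, 245 and 265 against 93.3, 94.9 and 132 CPM (log2 fold change 1.07, SE 0.30, adjusted p = 0.00222). The very long-chain enzyme Acadvl (-0.03, SE 0.39) and the long-chain enzyme Acadl (-0.71, SE 0.45) did not pass. Hadhb, the thiolase subunit of the trifunctional protein, fell to 85, 66.7 and 92 from 218, 148 and 190.2 CPM (log2 fold change -1.08, SE 0.34, adjusted p = 0.00649). Hadha, its other subunit, had the same sign without passing (-0.92, SE 0.45, adjusted p = 0.114), although its groups did not overlap. Acaa2, mitochondrial thiolase (-1.09, SE 0.42, adjusted p = 0.0325), and Eci2, an enoyl-CoA isomerase (-1.16, SE 0.35, adjusted p = 0.00396), were lower as well. Cpt2, Ech1 and Eci1 did not pass. Not tested, for failing the filter on low counts, were Cpt1c, Cpt1a, whose enzyme forms acylcarnitine at the outer membrane, and Etfdh, which hands electrons to ubiquinone.

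In fatty acid synthesis Fasn and both elongase genes were lower, while Scd1, Scd2 and Srebf1 were not called. Fasn, fatty acid synthase, measured 34, 66.7 and 11.5 CPM in ependymal-like and 93.3, 105 and 61.6 in astrocyte-like cells (log2 fold change -1.42, SE 0.54, adjusted p = 0.0314), with 1 ependymal-like library inside the astrocyte-like range. Elovl5, an elongase of polyunsaturated fatty acids, was at 44.2, 66.7 and 40.3 against 124, 179 and 147 CPM (log2 fold change -1.85, SE 0.42, adjusted p = 6.84e-05). Elovl6, which elongates palmitate to stearate, had 1 UMI in all ependymal-like cells and 19 in astrocyte-like cells, a log2 ratio of pooled levels of -4.50 with an exact 95% counting interval of -9.87 to -1.84. Scd2 was high in both classes, at 864, 712 and 472 and 839.9, 980.2 and 543 CPM (-0.12, SE 0.21 on the log2 scale, adjusted p = 0.726). Srebf1, the SREBP that drives fatty acid genes, was at 156, 178 and 63.3 and 124, 105 and 103 CPM (-0.02, SE 0.36, adjusted p = 0.987). Scd1 did not pass, and Acaca and Acacb failed the filter on low counts and were not tested.

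In sterol synthesis 5 of 7 genes were lower and 0 higher. Hmgcs1, which makes HMG-CoA, measured 51, 66.7 and 23 CPM in ependymal-like and 280.0, 179 and 134 in astrocyte-like cells (log2 fold change -1.90, SE 0.40, adjusted p = 1.87e-05). Idi1, isopentenyl diphosphate isomerase, was at 6.8, 44.5 and 11.5 against 187, 148 and 85.1 CPM (log2 fold change -3.17, SE 0.60, adjusted p = 1.06e-06). Insig1, the sterol-sensing brake on SREBP, was at 18.7, 22.2 and 5.75 against 156, 221 and 88.8 CPM (log2 fold change -3.00, SE 0.52, adjusted p = 1.25e-07). None of these 3 genes had overlapping groups. Fdft1, squalene synthase (-2.17, SE 0.52, adjusted p = 1.64e-04), and Fdps, farnesyl diphosphate synthase (-1.47, SE 0.46, adjusted p = 0.00573), were lower too, Fdps with overlapping groups. Sqle, squalene epoxidase, stood apart from the others at 98.6, 89 and 97.8 and 156, 63.2 and 101 CPM (-0.06, SE 0.38, adjusted p = 0.934). Srebf2, the SREBP of sterol genes, did not pass either (-0.40, SE 0.46).

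The promoters of 3 of these genes are printed because genes under SREBP often share a sterol regulatory element with a nearby box for the factor NF-Y. Sequences are from RefSeq (GRCm38.p6, plus strand), which gave a window for 30 of the 38 genes and 4 of the 7 sterol genes (Hmgcs1, Idi1, Insig1 and Srebf2). Each shows up to 250 bases before the RefSeq start, without bases that GENCODE annotates as UTR or coding. Capitals mark TCACCCCAC (the core of the element as known from classical targets) or its first letters TCACCCCA, CCAAT on either strand (ATTGG when reversed), and the E-box CACGTG.
Hmgcs1: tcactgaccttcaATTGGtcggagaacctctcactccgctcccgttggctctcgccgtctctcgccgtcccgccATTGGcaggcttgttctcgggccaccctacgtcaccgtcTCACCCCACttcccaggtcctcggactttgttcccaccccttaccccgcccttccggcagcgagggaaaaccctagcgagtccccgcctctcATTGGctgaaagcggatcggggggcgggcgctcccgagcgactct
Insig1: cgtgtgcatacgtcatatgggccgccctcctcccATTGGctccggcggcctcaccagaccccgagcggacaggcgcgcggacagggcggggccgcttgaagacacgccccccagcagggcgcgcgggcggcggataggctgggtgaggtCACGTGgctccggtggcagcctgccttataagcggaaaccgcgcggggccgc
Srebf2: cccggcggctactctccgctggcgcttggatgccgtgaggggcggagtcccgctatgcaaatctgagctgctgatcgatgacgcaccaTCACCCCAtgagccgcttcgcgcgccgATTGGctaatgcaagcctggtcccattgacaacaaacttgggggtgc
They lie at chr13:119690101-119690350, chr5:28071162-28071362 and chr15:82147019-82147180. Searched on both strands of the full 250 bases, TCACCCCAC was found in Hmgcs1 alone of the 30 genes and in 0.496% of all 32851 windows. The shorter TCACCCCA, chosen after the sequences were read, occurs in Hmgcs1 and Srebf2 and in 1.34% of windows. CCAAT was in 4 of the 4 sterol genes, in 19 of the 30 genes, and in 33.8% of windows. CACGTG was in Insig1, Elovl5 and Abca1 and in 6.02% of windows. These are matches of letters, not measured sites.

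Other genes of the same pathways, a list of 108 taken from textbook knowledge, gave 56 tested genes in this comparison, of which 4 were higher and 22 lower. Lower ones included 8 of 12 tested other sterol genes and 0 of those 12 were higher, while 6 of 11 other fatty acid synthesis genes were lower and 1 higher. Of 15 other oxidation genes 1 was lower and 1 higher. The largest differences were those of Dgat2, which makes triglyceride, Abcg1, a sterol exporter, and Mgll, monoacylglycerol lipase. Dgat2 had 162 UMIs in ependymal-like and 1 in astrocyte-like cells, a log2 ratio of 7.09 with a counting interval of 4.59 to 12.40. Abcg1 had 12 UMIs against 0, which is at least 3.37-fold higher against a floor of 3 UMIs over the group. Mgll was lower (log2 fold change -5.09, SE 0.43, adjusted p = 2.8e-30).

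How far the calls depend on single libraries can be stated by gene. Without tdTomato-negative library 1 the count of lower genes was 9, and without tdTomato-negative library 2 it was 6. Over all genes the lower calls fell too, from 420 of 3324 to 191 of 3518 and 104 of 1840. Fdps, Fdft1, Acadm, Hadhb, Etfb and Eci2 lost their call without either one, Fasn and Acaa2 without the first, and Elovl5 and Fabp7 without the second. Acaa2 also lost its call with DESeq2, with no count filter, with the stricter cell filter and with at least 20 cells per sum (adjusted p from 0.0575 to 0.139), Fasn with no count filter (0.0761) and Hadhb with at least 20 cells per sum (0.0597). Dbi, Etfa, Acsl3, Acsl6, Acsbg1, Elovl6, Hmgcs1, Idi1 and Insig1 kept their call and sign under every alternative in which they were tested. Fasn, Elovl6 and Acaa2 could not be tested without tdTomato-negative library 2, because they did not pass the filter there.

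**Figure D3:**
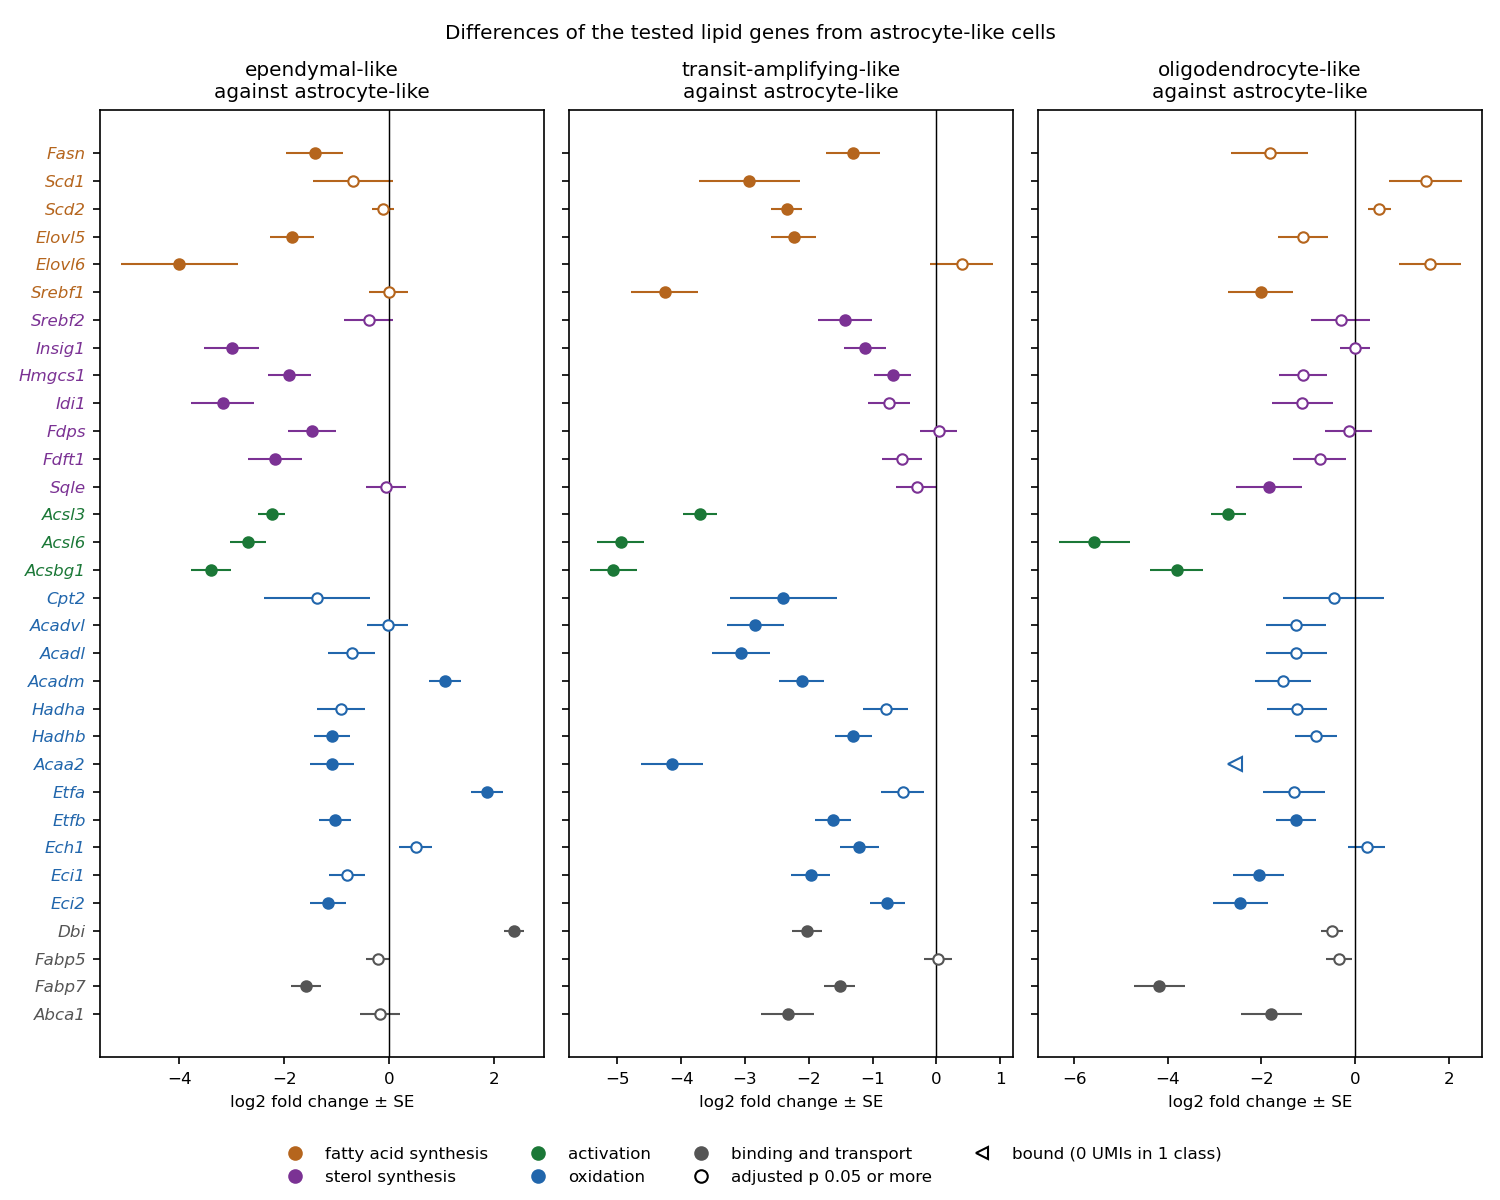
Log2 fold change with its standard error (edgeR) of each lipid gene tested, for 3 classes against astrocyte-like cells, coloured by arm. Filled symbols passed at an adjusted p under 0.05, and the triangle is the bound for Acaa2, which had 0 UMIs in oligodendrocyte-like cells. Activation genes lie left of 0 in all 3 panels, with log2 fold changes of -2.24 or lower.

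From astrocyte-like cells, which in this tissue can include quiescent stem cells, to dividing transit-amplifying-like cells, the lipid genes fell broadly. Of 32 tested genes 24 were lower, and 0 were higher with either edgeR or DESeq2, also at an unadjusted p under 0.05, beside 46.3% of all genes called (21.3% higher, 25% lower; 14.3% higher with DESeq2). Their median log2 fold change was -1.57, against -0.10 over all genes (-0.23 with RLE size factors and -0.29 with DESeq2). Median UMIs per cell were 7222 in transit-amplifying-like and 2372 in astrocyte-like cells, and their part in the result was not tested. Sums of transit-amplifying-like cells exist for the tdTomato-negative libraries alone. Here too some of the 32 may have passed the filter on low counts through high astrocyte-like sums alone, which favours lower calls. All 3 activation genes were lower, as were 5 of 6 tested fatty acid synthesis genes and 10 of 12 tested oxidation genes, but only 3 of 7 sterol genes.

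Activation genes differed most. Acsl3 measured 56.4 and 67.4 CPM in the 2 sums of transit-amplifying-like cells, below each of the 3 astrocyte-like values given above (log2 fold change -3.71, SE 0.26, adjusted p = 2.28e-42). Acsl6 (24.2 and 9.29 CPM, log2 fold change -4.95, SE 0.37, adjusted p = 2.41e-39) and Acsbg1 (8.06 and 15.1 CPM, log2 fold change -5.06, SE 0.37, adjusted p = 7.75e-40) were lower by a wider margin. In fatty acid synthesis, Srebf1 was at 0 and 6.97 CPM (log2 fold change -4.26, SE 0.52, adjusted p = 4.42e-15) and Scd2 at 161 and 131 CPM (log2 fold change -2.35, SE 0.24, adjusted p = 1.57e-20). Elovl6 was the tested gene of this arm that was not called, at 40.3 and 41.8 against 31.1, 31.6 and 27.2 CPM (0.40, SE 0.49, adjusted p = 0.541).

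In oxidation, Acaa2 was at 4.03 and 9.29 CPM, against 124, 116 and 139 in astrocyte-like cells (log2 fold change -4.14, SE 0.48, adjusted p = 1.67e-16). The dehydrogenase genes Acadl (-3.06, SE 0.45), Acadvl (-2.84, SE 0.44) and Acadm (-2.11, SE 0.36) were lower, as log2 fold changes. Acadl had no UMI in the 16 astrocyte-like cells of the tdTomato-positive library, so its groups overlapped. Hadha (-0.79, SE 0.35, adjusted p = 0.0525) and Etfa (-0.53, SE 0.33, adjusted p = 0.188) did not pass, whereas their partner subunits Hadhb (-1.30, SE 0.29) and Etfb (-1.62, SE 0.28) did. Dbi was at 742 and 942 CPM (log2 fold change -2.03, SE 0.23, adjusted p = 2.69e-17), Fabp7 at 117 and 230.0 (log2 fold change -1.51, SE 0.25, adjusted p = 5.64e-09) and Abca1 at 20.2 and 20.9 (log2 fold change -2.33, SE 0.42, adjusted p = 1.4e-07). Fabp5 did not follow them, at 762 and 857 against 622, 727 and 752 CPM (0.03, SE 0.22, adjusted p = 0.94).

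In sterol synthesis 3 of 7 genes were called, the smallest share of the 5 arms. Srebf2 (-1.43, SE 0.42, adjusted p = 0.00217), Insig1 (-1.12, SE 0.33, adjusted p = 0.00261) and Hmgcs1 (-0.69, SE 0.29, adjusted p = 0.0366) were lower, the last losing its call under most alternatives. Fdps stood at 145 and 141 CPM against 31.1, 137 and 119.6 (0.04, SE 0.29, adjusted p = 0.944). Sqle, Fdft1 and Idi1 did not pass. In both tdTomato-negative libraries cluster 9, in which 54.1% of cells held a UMI of Dcx, had the highest Fdps of any class with 2 libraries, at 255 and 206 CPM. Its mean Sqle (132 CPM) and Fdft1 (111 CPM) were highest as well. Sqle stood clear of the class next by mean, oligodendrocyte precursor-like cells, in every library. Fdft1 did not stand clear of astrocyte-like cells, the next by mean. The Sqle level of astrocyte-like cells in the tdTomato-positive library, given above, was higher than the cluster 9 mean. Thrsp, a gene known from lipogenic tissues that is not among the 38 and was noticed among this cluster's leading genes, measured 650.0 and 329 CPM there and 337 and 384 CPM in astrocyte-like cells of the same libraries.

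Of the other pathway genes 1 was higher and 34 lower among 56 tested in dividing cells. By list these lower genes were 7 of 11 of fatty acid synthesis, 7 of 12 of sterol synthesis, 11 of 15 of oxidation and 8 of 16 of binding and transport. Mgll had 2 UMIs against 280 (log2 ratio -7.84, counting interval -10.89 to -5.97). Ppargc1a, a coactivator of mitochondrial genes, was lower as well (log2 fold change -4.65, SE 0.60, adjusted p = 1.42e-13). Me1, malic enzyme, a source of NADPH, had 2 UMIs against 33 (-4.75, counting interval -7.86 to -2.78). Without tdTomato-negative library 1 the count of lower genes among the 38 was 14, and without library 2 it was 8, while over all genes it went from 831 of 3324 to 418 of 3518 and 204 of 1840. Fasn, Srebf2, Cpt2 and Fabp7 lost their call without library 1, Acadm, Eci1 and Abca1 without library 2, and Insig1, Hmgcs1, Hadhb, Etfb, Ech1 and Eci2 without either. Without library 2, Fasn, Scd1, Srebf2, Cpt2, Acadvl, Acadl and Acaa2 did not pass the filter and were not tested.

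Between transit-amplifying-like and neuroblast-like cells few lipid genes differed. Of 32 tested, 2 were lower in neuroblast-like cells and 0 higher (0 higher also with DESeq2 and at an unadjusted p under 0.05), beside 15.3% of all genes called (7.37% higher, 7.91% lower; 4.27% higher with DESeq2). Fabp7 fell to 0 and 33 CPM from 117 and 230.0 (log2 fold change -2.85, SE 0.39, adjusted p = 1.56e-11). Dbi was at 550.4 and 505 CPM against 742 and 942 (log2 fold change -0.69, SE 0.25, adjusted p = 0.0461). Neither gene's groups overlapped, yet without tdTomato-negative library 2 both calls were lost, without library 1 that of Dbi, and the Dbi call also failed without the library block (adjusted p = 0.322), without a filter on low counts and with doublet calls removed. The number of lower genes was between 0 and 8 over all alternatives. Idi1 did not pass (-1.07, SE 0.43, adjusted p = 0.0713), although its groups did not overlap. Fabp5 was at 1111 and 881 CPM in neuroblast-like cells, its highest class, and at 762 and 857 CPM in transit-amplifying-like cells (0.28, SE 0.22, adjusted p = 0.454). In neuron-like cells it was at 662 and 906 CPM, a range that overlaps both. Cpt1c, the brain form of carnitine palmitoyltransferase, was highest in neuron-like cells at 50.3 and 32.6 CPM. These cells held a UMI of Dcx in 72.9% of cases, and their neuroblast markers summed to 15441 and 13819 CPM against 6252 and 7078 CPM for neuron markers, so the class is not one of mature neurons alone. Among 56 other pathway genes 3 were higher and 2 lower. Hadh, a short-chain dehydrogenase of oxidation, had 2 UMIs against 27 (log2 ratio -2.91, counting interval -6.03 to -0.92). Vldlr, a lipoprotein and reelin receptor, was higher (log2 fold change 2.01, SE 0.55, adjusted p = 0.003), and Oxct1, which lets cells burn ketone bodies, was lower (log2 fold change -1.76, SE 0.28, adjusted p = 2.03e-08).

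Oligodendrocyte-like cells, which make myelin, combined high Scd2 with low oxidation and activation genes. Sums existed for the tdTomato-positive library (14 cells) and tdTomato-negative library 2 (20 cells). Of 32 tested genes 11 were lower than in astrocyte-like cells and 0 higher, beside 19.3% of all genes called (8.06% higher, 11.2% lower; 7.04% and 5.63% with DESeq2). Higher genes were also 0 with DESeq2, and at an unadjusted p under 0.05 they were 2 with edgeR and 1 with DESeq2. Over all genes the split moved from 268 higher and 372 lower to 234 and 187 with DESeq2, and the median log2 fold change from -0.39 to -0.26 with RLE size factors and to -0.15 with DESeq2. Scd2 measured 1484 and 1006 CPM, above all 3 astrocyte-like values, without passing (0.51, SE 0.24, adjusted p = 0.137). Elovl6 was at 111 and 95.8 CPM, also above them (1.60, SE 0.66, adjusted p = 0.069).

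Lower genes came from every arm. Acsl3 was at 37.1 and 144 CPM (log2 fold change -2.71, SE 0.38, adjusted p = 3.42e-11), a call that stood under every alternative run. The call of Acaa2 stood wherever it was tested, which excludes the fit without tdTomato-negative library 2. Acaa2 had 0 UMIs in these 34 cells and 92 in astrocyte-like cells, so it was at least 5.93-fold lower against a floor of 3 UMIs over the group. Acsl6 had 1 UMI against 246 (log2 ratio -5.57, counting interval -10.88 to -3.08). Acsbg1 (-3.81, SE 0.57), Fabp7 (-4.18, SE 0.54), Eci2 (-2.45, SE 0.59) and Eci1 (-2.06, SE 0.54) were lower, as were Srebf1, Sqle, Etfb and Abca1 with adjusted p of 0.0247, 0.0443, 0.0213 and 0.0355. The calls of these last 4 failed with DESeq2, with the stricter cell filter and without any 1 library. Without tdTomato-negative library 2 only 1 of the lipid genes was called lower, and without library 1 there were 6, beside 28 of 1840 and 159 of 3518 over all genes (372 of 3324 with every library). Median mitochondrial shares in oligodendrocyte-like cells were 13.5% in the tdTomato-positive library and 4.2% in tdTomato-negative library 2, and their part in these differences was not tested.

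Of the other pathway genes 7 were higher and 13 lower among 56. Abcg1 had 12 UMIs against 0 (at least 20.7-fold higher). Fads2, a fatty acid desaturase, and Abcd2, a peroxisomal acyl-CoA transporter, had 0 UMIs against 51 and 32 (at least 3.29-fold and 2.06-fold lower). In oligodendrocyte precursor-like cells Fabp7 was at 641 and 1028 CPM and Scd2 at 236 and 331 CPM, while oligodendrocyte-like cells had Fabp7 at 37.1 and 28.7 CPM and the higher Scd2 given above. Precursors and oligodendrocyte-like cells were not tested against each other. Fabp5 in precursors, at 67.4 and 187 CPM, was the lowest of any class with 2 libraries.

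Among astroglia, the Gfap-rich cluster (72 cells, led by Gfap, Id3 and Thbs4, genes known from SVZ stem cells and ventricle-side astrocytes) was compared with the Gfap-poor one (209 cells, led by Slc7a10, Htra1 and Ntm). Of 33 tested genes 2 were higher and 1 lower, beside 3.99% of all 3484 genes called (1.89% higher, 2.1% lower; 66 higher and 73 lower, or 64 and 35 with DESeq2, the latter 1.0%). Fabp7 measured 1029 and 1055 CPM in the Gfap-rich cluster (tdTomato-negative libraries 1 and 2) and 38.2, 238 and 344 in the Gfap-poor one (log2 fold change 1.59, SE 0.28, adjusted p = 3.09e-06). Dbi was at 5317 and 6622 against 2634, 2319.7 and 2747 CPM (log2 fold change 1.06, SE 0.26, adjusted p = 0.00305). Neither gene's groups overlapped. The 16 ependymal markers summed to 343 and 427 CPM in the Gfap-rich cluster and to 1107, 391 and 270 in the Gfap-poor one, so they were not higher beside Dbi in library 1, while in library 2 they were. In library 1 of the Gfap-rich cluster 4 of the 16 markers were detected and Foxj1, the regulator of motile cilia, was at 0, and in library 2 there were 12. Their part in the Dbi difference was not tested. Acsbg1 was lower, at 300.2 and 179.6 against 382, 293 and 504 CPM (log2 fold change -1.42, SE 0.36, adjusted p = 0.00457), with overlapping groups.

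All 3 of these calls were lost when either tdTomato-negative library was left out, which leaves sums of the Gfap-rich cluster in 1 library. Without the library block Fabp7 alone passed. No gene of sterol synthesis, fatty acid synthesis or oxidation was called, with 26 tested. Among 63 other pathway genes 1 was higher and 4 lower. The lower ones included Fads2, with 2 UMIs against 49 (log2 ratio -2.90, counting interval -5.98 to -0.97) and Dhcr7, of cholesterol synthesis (log2 fold change -2.36, SE 0.70, adjusted p = 0.0228).

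**Figure D4:**
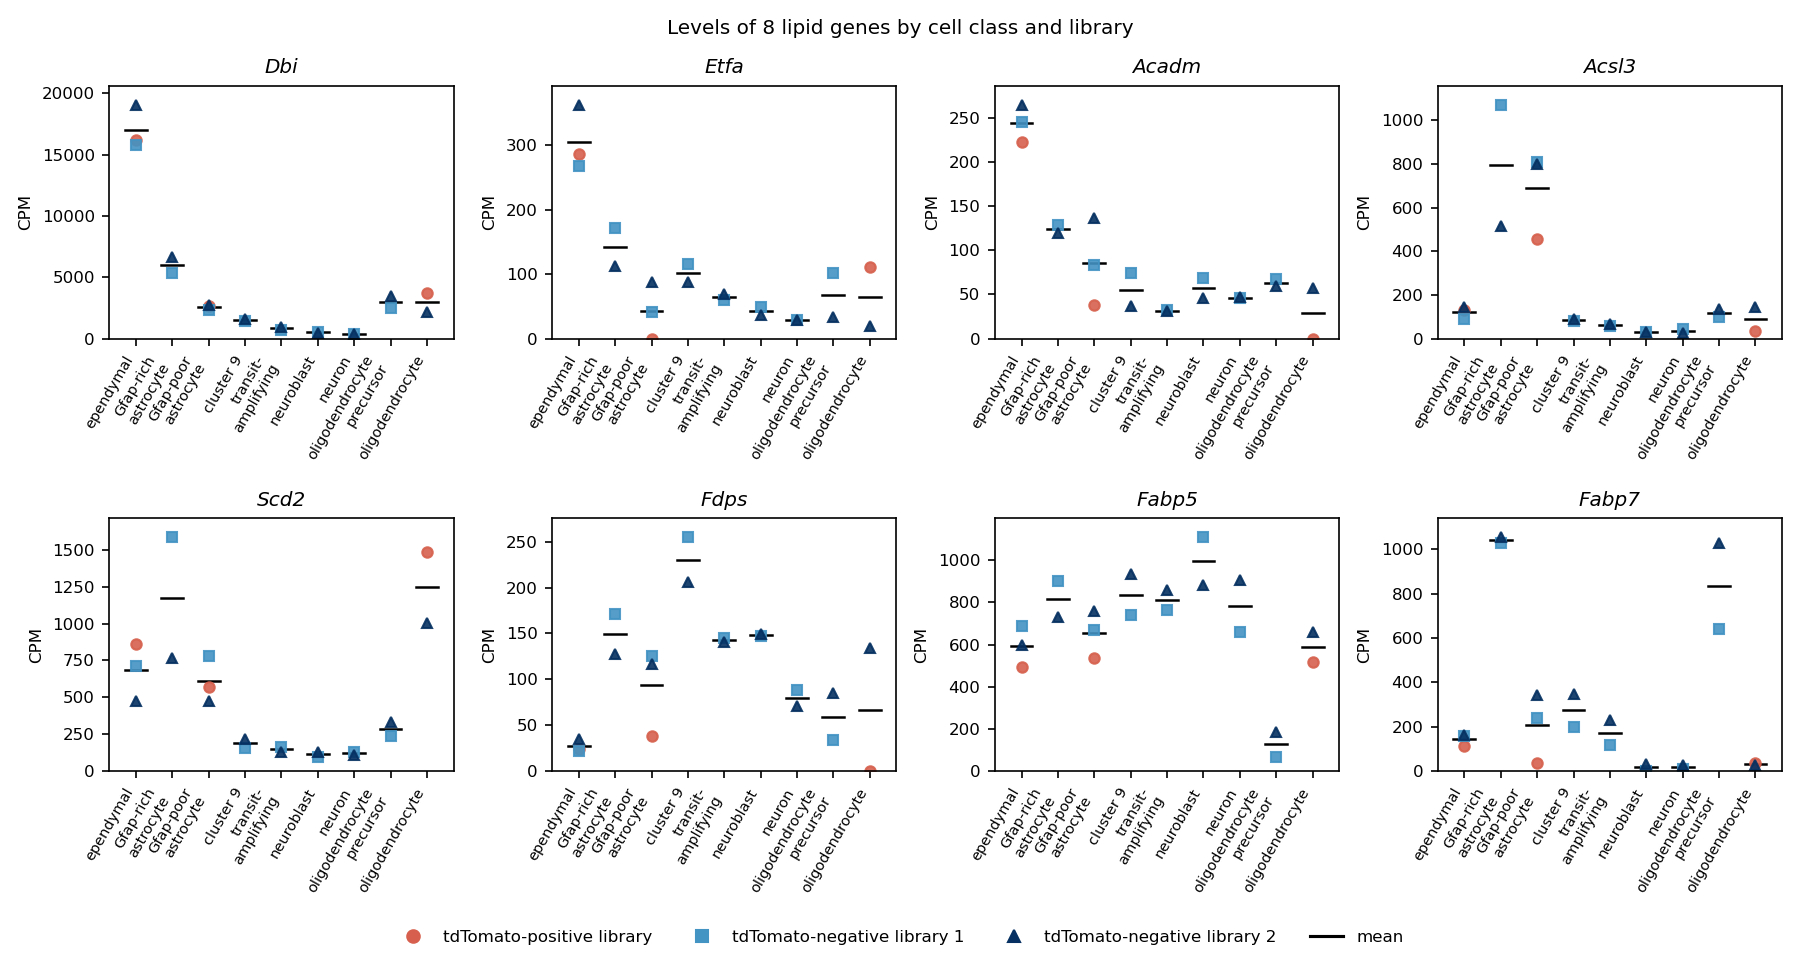
CPM of 8 lipid genes in 9 cell classes or clusters, each symbol 1 library and the bar the mean. Dbi, Etfa and Acadm are highest in ependymal-like cells, Acsl3 in the 2 astrocyte-like clusters, Fdps in cluster 9, and Fabp7 in the Gfap-rich cluster (1029 and 1055 CPM) and oligodendrocyte precursor-like cells.

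The sort itself was compared over all cells, 1 tdTomato-positive library against 2 tdTomato-negative ones, with 1 residual degree of freedom and no replicate of the positive gate. Of 36 tested genes 11 were higher and 6 lower in the tdTomato-positive library, beside 41.8% of all 10944 genes called (22.9% higher, 19.0% lower). With DESeq2 these were 7 and 2, beside 17.4% of all genes (10.9% higher, 6.54% lower). The gates held different cell types, and this comparison cannot tell a gene's level within a type from the makeup. Dbi was at 13695 CPM, against 1775 and 2286 (log2 fold change 2.80, SE 0.32, adjusted p = 3.18e-17), and Etfa at 247 against 75.6 and 74.2 (log2 fold change 1.77, SE 0.30, adjusted p = 3.95e-08). Scd2 (1.63, SE 0.30) and Srebf1 (2.43, SE 0.32) were higher too, and Fdps (-2.38, SE 0.41), Fdft1 (-2.02, SE 0.43) and Idi1 (-1.86, SE 0.45) lower. Of 89 other pathway genes 9 were higher and 15 lower, 7 of the lower ones among 21 other sterol genes. Dgat2 (3.55, SE 0.33) and Fads3 (2.81, SE 1.00), another fatty acid desaturase, were the highest, and Abcg4, a sterol exporter, had 0 UMIs against 30. Against a floor of 3 UMIs Abcg4 was at least 1.6-fold lower.

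Within ependymal-like cells (177, 12 and 45) the gates could be compared for the same type, again with 1 residual degree of freedom and no replicate of the positive gate. In simulated data this comparison recovered 58.1% of changes of 2 log2 units and 8.42% of changes of 1 unit. Differences may thus have been missed. Of 24 tested genes 0 were called with edgeR, and 0 with DESeq2, beside 0.293% of all 4098 genes (0.171% higher, 0.122% lower; 0.0% with DESeq2). At an unadjusted p under 0.05 there was 1 with edgeR, Scd2, and 0 with DESeq2. Dbi measured 16204, 15794 and 19059.6 CPM, a log2 difference of 0.00, SE 0.34, and Etfa had -0.14, SE 0.32.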

How the data were processed

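Values in the deposited matrices of the 3 10x v2 libraries are unnormalized whole UMI counts, 1 for each pair of gene and barcode. Cell Ranger, STAR and Seurat 1.4.0.15 with the builds mm10 and GRCm38.p5 are named in the submitters' processing notes; which steps made the deposited counts is not given in the sources used here. The members and the gene lists were chosen with earlier results of these data known.

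A cell was kept if it had 300 or more genes and a mitochondrial share of at most 25% (1629 of 1700 barcodes). They were clustered in scanpy 1.11.5 (Leiden, resolution 1.0, 20 principal components of 1000 variable genes) on genes with an even last digit in the Ensembl ID plus 159 markers, 14047 genes in all, without the 38 lipid genes and 108 pathway genes. Doublets were scored with Scrublet, which marked 9, 2 and 3 cells; none was removed, except in an alternative. Raw counts were summed per library and class, for at least 10 cells, and tested with edgeR 4.0.16 (quasi-likelihood, TMM, library as a block) in R 4.3.3, with Benjamini-Hochberg adjustment over all genes tested. The filter on low counts was filterByExpr, which asks for a minimum level in a small number of sums. In the class comparisons a gene spread over classes can thus fail it. Acaca, with 186 UMIs in all, failed, while Scd1, with 63, passed. Numbers in class comparisons pair the sums because sums of 1 library come from the same cell suspension. Pathway genes named are the 3 with the largest absolute change among those called in each comparison; 1 of them is not reported here. DESeq2 1.42.0 and other settings were alternatives. Intervals are exact at 95% and cover counting error only. The procedure was tested on simulated data, drawn with the same profile for all classes and a fixed dispersion. Changed genes that then failed the filter on low counts were scored as not recovered. Of changes of 2 log2 units it recovered 36.6% (ependymal-like against astrocyte-like, 2406 genes) and 63.9% (transit-amplifying-like against astrocyte-like, 2388 genes). Of 1 unit it recovered 9.09% and 9.78%. These shares hold for the simulation, and the real tests may differ.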

Additional observations from a re-analysis of the deposited data

How the results depend on the processing

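No tested change of sign was seen among the calls. Leaving out 1 library at a time gave 6 to 18 lower genes for ependymal-like against astrocyte-like cells (2 to 3 higher), 8 to 24 for transit-amplifying-like against astrocyte-like, 0 to 5 lower and 0 to 1 higher for neuroblast-like against transit-amplifying-like, 1 to 10 lower and 0 to 2 higher for oligodendrocyte-like against astrocyte-like, and 0 to 3 lower and 0 to 2 higher for the Gfap-rich against the Gfap-poor cluster. A fit left with 1 sum of a class assumes that it varies like the others. In the class comparisons with astrocyte-like or transit-amplifying-like cells, 3324 genes were tested with every library, 1840 without tdTomato-negative library 2 and 3518 without library 1.

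For neuroblast-like against transit-amplifying-like cells, lower genes were 4 with RLE size factors, the stricter cell filter (500 genes, 10% mitochondrial) or odd-digit clustering, 8 at resolution 0.5, 5 with at least 20 cells per sum, and 1 with no count filter or doublet calls removed. Higher ones were 1 with RLE or the stricter filter. For oligodendrocyte-like cells, higher genes were 1 with RLE, odd-digit clustering, resolution 0.5 or 2.0, or at least 20 cells per sum, and 2 with the stricter filter, and lower ones 7 with DESeq2. For the Gfap-rich cluster, lower genes were 3 with RLE, 0 with DESeq2, and 2 with odd-digit clustering, doublet calls removed or at least 20 cells per sum. Over all cells DESeq2 called 7 higher and 2 lower. The cause of these changes was not tested.

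With no replicate block for the library, lower genes numbered 1 in neuroblast-like against transit-amplifying-like cells and 7 in oligodendrocyte-like against astrocyte-like cells, and in the Gfap-rich cluster 1 was higher and 0 lower. The gates were not compared in pairs, because only 1 library is positive and the labels do not say which libraries share mice.

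The ratio of synthesis to oxidation without the most abundant gene of each arm was 0.200 (ependymal-like), 0.332 (astrocyte-like), 0.252 (transit-amplifying-like), 0.203 (neuroblast-like) and 0.620 (oligodendrocyte-like), and thinned to 1000 UMIs 0.352, 0.467 and 1.28 in the last 3. Thinning thus reversed the order of transit-amplifying-like and neuroblast-like cells. Of 250 other arm values, not counting ratios by class, 209 moved by less than 1 SD. Over all genes, calls in neuroblast-like against transit-amplifying-like cells were 508, and 293 with DESeq2 or 815 with at least 20 cells per sum. In oligodendrocyte-like cells they were 640, and 421 with DESeq2. For the Gfap-rich cluster they were 139, and 233 with RLE or 83 without the block. Without tdTomato-negative library 1 and without library 2, calls over all genes were 592 and 276 for ependymal-like against astrocyte-like cells (1034 with every library), 745 and 366 for transit-amplifying-like against astrocyte-like (1539), 91 and 21 for neuroblast-like against transit-amplifying-like, 333 and 47 for oligodendrocyte-like against astrocyte-like, and 11 and 5 for the Gfap-rich cluster.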
